A study of Mus musculus with 18 samples.

Results

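Semaphorins, plexins and neuropilins were measured by RNA-seq and Ribo-seq in the mouse cerebral cortex. They were taken as every gene whose symbol names a semaphorin of classes 3 to 7, a plexin of the A to D families, or *Nrp1* or *Nrp2*, which gave 31 of the 55153 genes in the RNA-seq table. The rule used symbols only, although it was set with earlier results of these data known. The 31 genes comprised 7 secreted semaphorins (class 3), 13 membrane-bound semaphorins (classes 4 to 7), 9 plexins and 2 neuropilins. Cortices were collected on embryonic day 15.5 (E15.5) from 3 groups of C57BL/6 mice with 3 libraries each per assay, 18 libraries in all. Control mice (Ctrl) were labelled wild type. *M*-cKO mice were *Mettl3*(f/f, Emx1-cre) and lost exons 2 and 3 of *Mettl3*, the catalytic subunit that writes m6A on mRNA. *F*-cKO mice were *Fto*(f/f, Emx1-cre) and lost exon 3 of *Fto*, an enzyme that removes methyl groups from RNA. Cre was driven by the *Emx1* promoter, so that progenitors of the dorsal cortex and their descendants recombine, while blood vessels, microglia, meninges and interneurons from the ventral forebrain keep the floxed gene. The floxed lines came from a C57/BL6 and 129 background. The labels do not say which libraries shared a litter, and the Ribo-seq methods speak of 3 cortical samples "from 1 L", which may mean 1 litter. *P* values therefore measure only the spread between these samples, which may be technical.

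Semaphorins are guidance cues that steer axons and migrating neurons, mostly by repulsion. Plexins are their transmembrane receptors and signal through a GTPase-activating domain in the cytoplasm. Most secreted class 3 semaphorins cannot bind plexins alone and act through a neuropilin, which holds the ligand while an A-type or D-type plexin signals. Membrane-bound semaphorins bind plexins directly, class 4 mainly B-type plexins, class 6 A-type plexins and *Sema7a* the C-type plexin. In the developing cortex these genes are known for orienting cortical axons, guiding radial migration and sorting interneurons.

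The genes lie on many chromosomes, but 4 of the 7 class 3 genes (*Sema3a*, *Sema3c*, *Sema3d* and *Sema3e*) lie on chromosome 5, and *Sema3b* and *Sema3f* both on chromosome 9. RefSeq promoter windows (GRCm38.p6) matched 26 of the 31 genes. The 250 bases before the start are shown for 4 genes. Of the 20 genes called in RNA-seq against Ctrl, 7 have a window ending at the outermost start of the gene, and these 4 changed most among them. *Sema3c*, *Sema4a* and *Sema6b* were lower and *Sema5a* was higher in *F*-cKO. Capitals mark GGGCGG or its reverse complement CCGCCC, the GC box. Sema3c lies on the plus strand at chr5:17574566-17574815, Sema5a on the plus strand at chr15:32244563-32244812, Sema4a on the minus strand at chr3:88461183-88461432 and Sema6b on the minus strand at chr17:56140344-56140593.
Sema3c: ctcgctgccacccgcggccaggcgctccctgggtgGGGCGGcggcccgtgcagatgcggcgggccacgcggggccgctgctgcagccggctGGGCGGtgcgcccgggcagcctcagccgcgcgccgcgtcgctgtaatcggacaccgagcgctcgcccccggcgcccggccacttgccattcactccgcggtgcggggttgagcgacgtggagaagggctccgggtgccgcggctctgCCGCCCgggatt
Sema5a: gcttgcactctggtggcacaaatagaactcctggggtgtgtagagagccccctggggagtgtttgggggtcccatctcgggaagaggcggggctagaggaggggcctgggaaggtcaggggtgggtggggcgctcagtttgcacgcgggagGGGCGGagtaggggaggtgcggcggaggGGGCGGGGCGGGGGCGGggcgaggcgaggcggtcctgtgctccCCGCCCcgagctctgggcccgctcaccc
Sema4a: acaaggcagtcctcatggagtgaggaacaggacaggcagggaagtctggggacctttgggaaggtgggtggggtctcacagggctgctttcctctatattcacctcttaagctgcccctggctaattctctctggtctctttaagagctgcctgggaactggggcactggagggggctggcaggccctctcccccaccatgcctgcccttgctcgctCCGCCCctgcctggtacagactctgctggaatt
Sema6b: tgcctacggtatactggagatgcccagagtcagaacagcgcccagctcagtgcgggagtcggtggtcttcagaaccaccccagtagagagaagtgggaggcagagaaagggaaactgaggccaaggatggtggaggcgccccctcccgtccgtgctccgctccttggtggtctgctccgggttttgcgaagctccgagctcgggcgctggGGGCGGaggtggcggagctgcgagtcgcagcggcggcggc
The *Sema3c* window is 78.4% G or C with 39 CpG pairs, and the *Sema5a* window 72% with 17. *Sema4a* has 59.6% and 2 CpG pairs, and *Sema6b* 66% and 20. Over both strands, GGGCGG was present in 27 of the 37 windows of these gene families, compared to 32.7% of all 32851 windows of that length. CCAAT was found in 7 of the 37, compared to 33.8% of all windows, and TATAAA in 0, compared to 12.4%. The E-box CAGCTG was found in 6 of the 37, compared to 13% of all windows, and in none of the 4 sequences shown. Overlapping matches were counted, and the median G or C content was 64% in the 37 windows and 52.4% in all.

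The RNA-seq libraries held 18504094 to 22592406 counts and the Ribo-seq libraries 10973699 to 35853227. *Fto* RNA was lower in each *F*-cKO library than in Ctrl, but replicate 2 kept 99.2 CPM (TMM-scaled counts per library of fixed size), compared to 42.8 and 32.2 in replicates 1 and 3 and 111 to 147 in Ctrl. *Fto* footprints were at 40.4, 25.6 and 43.1 CPM in the *F*-cKO Ribo-seq libraries, compared to 188 to 276 in Ctrl. *Mettl3* RNA was higher, not lower, in the libraries labelled *M*-cKO (40.1 to 44.0 compared to 26.1 to 32.9 CPM). Whole-gene counts include the exons that were not deleted, and *Mettl3* footprints were lower in *M*-cKO (26.6 to 28.3 compared to 38.1 to 41.5). No listed marker of any cell type was at 0 in any group, but marker sums moved with genotype. Radial glia markers summed to 1225 to 1373 CPM in *M*-cKO RNA and 1542 to 1655 in Ctrl (2 of 6 rose and 2 fell). Projection neuron markers summed to 3057 to 3165 in *M*-cKO and 2487 to 2528 in Ctrl (5 of 6 rose and 1 fell), and 3 of 4 Cajal-Retzius markers rose. In *F*-cKO RNA the projection neuron markers summed to 2810 to 2860 (3 of 6 rose and 0 fell). The Cajal-Retzius markers summed to 349 to 381 in *F*-cKO and 257 to 294 in Ctrl (1 of 4 rose). Intermediate progenitor markers summed to 675 to 718 in *M*-cKO, 693 to 863 in *F*-cKO and 401 to 617 in Ctrl. All 6 markers of ganglionic eminence and interneurons rose in *M*-cKO RNA, and their summed level was 561 to 749 CPM compared to 417 to 425 in Ctrl and 391.8 to 527.9 in *F*-cKO. Of 5 meningeal markers 3 fell in *F*-cKO RNA, with sums of 16.8 to 47.0 compared to 62.4 to 123 in Ctrl. Ribo-seq *F*-cKO replicate 2 stood apart from the other Ribo-seq libraries, and the edgeR results of Ribo-seq in *F*-cKO are given with and without it. DESeq2 was run only with it.

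In Ctrl RNA, 26 of the 31 genes reached a mean of 1 FPKM (fragments scaled by transcript length and library size, as deposited). All 13 membrane-bound semaphorins, both neuropilins and 8 of the 9 plexins did so, compared to 3 of the 7 secreted semaphorins. The highest level was that of *Sema7a*, a GPI-anchored semaphorin, with 36.6, 34.9 and 40.0 FPKM in the 3 Ctrl libraries. *Sema4g* followed with 33.4, 36.5 and 37.2 FPKM, and *Plxna3*, a receptor of class 3 semaphorins, with 31.1, 35.0 and 36.2. *Plxnb2* (34.0 ± 3.04 FPKM, SD, n = 3) and *Sema6c* (32.1 ± 2.67) came next. The libraries of each of these genes overlapped those of its neighbours in this order, so that the order among the 5 is not resolved. *Plxna2* came next with 27.8 ± 2.22 FPKM and also overlapped *Sema6c*, followed by *Sema4c*, *Sema6b*, *Plxnb1* and *Plxna1* between 23.5 and 24.6. *Nrp1*, the obligate partner of *Sema3a*, was at 15.97 ± 0.654 FPKM and *Nrp2* at 12.1.

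Among the secreted ligands *Sema3c* led with 14.7 FPKM and *Sema3f* followed with 11.2, while *Sema3a* stood at 2.37. *Sema3b*, *Sema3d*, *Sema3e* and *Sema3g* had means of 0.257 to 0.688 FPKM. *Plxnb3* had 5 to 19 reads in each of the 9 RNA-seq libraries, and it alone failed the filter on low counts. Summed over genes, Ctrl RNA held 204 FPKM of membrane-bound semaphorins, 175 of plexins, 30.2 of secreted semaphorins and 28.0 of neuropilins.

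**Figure D1:**
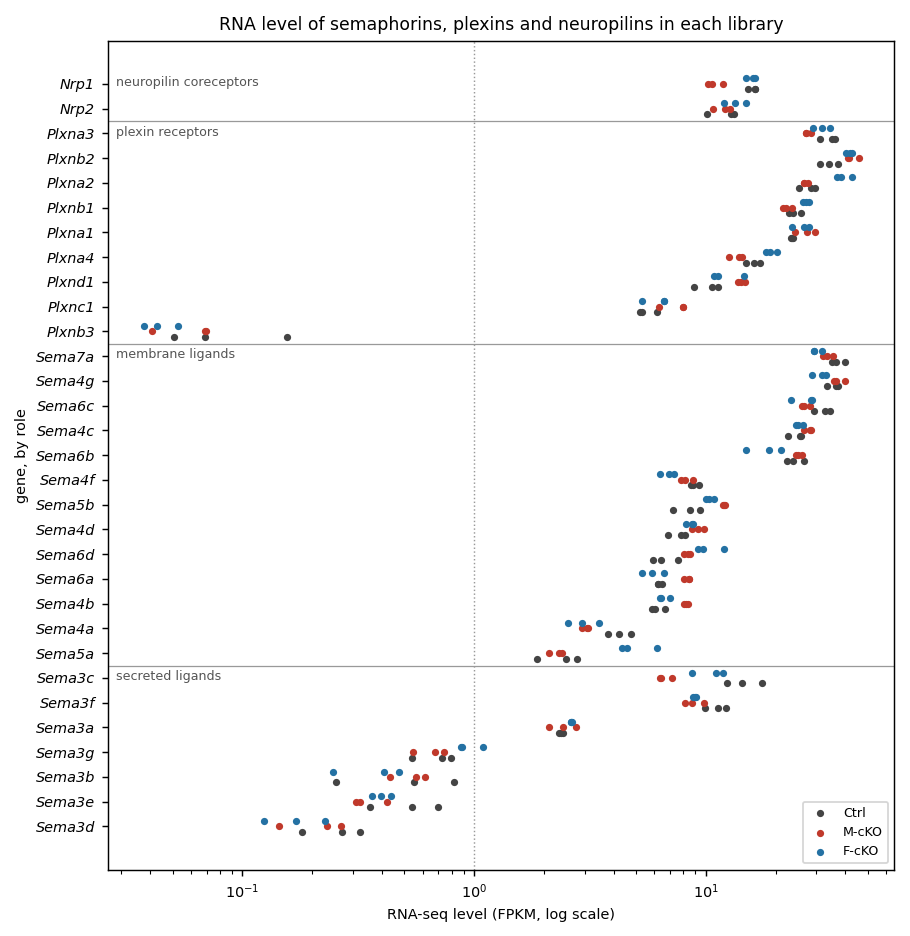
RNA level in FPKM (x axis, log scale) of the 31 genes (y axis, grouped by role and ordered by Ctrl mean) in each of 9 libraries, 1 point per library coloured by genotype. The dotted line marks 1 FPKM, which 26 genes reach in Ctrl, and the *Sema3c* points of *M*-cKO (6.32 to 7.13 FPKM) lie apart from those of Ctrl (12.3 to 17.5).

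Footprint levels in Ctrl had another order. In RPKM (footprints scaled in the same way, as deposited), *Nrp1* ranked first with 10.7 ± 0.860 (SD, n = 3), *Plxna2* came next with 8.74 ± 0.590 and then *Sema6c* with 5.49 ± 0.113. *Sema7a*, first in RNA, was at 4.33 RPKM, and *Plxna3* at 3.21. The ratio of mean RPKM to mean FPKM, a translation efficiency (TE) level without a test, had a median of 0.246 over the 31 genes, compared to 0.757 over 12952 genes at 1 FPKM or more and 0.790 over all 25038 genes above 0 in both assays. In single Ctrl replicates the median over the 31 genes was 0.218 to 0.276. The ratio joins 2 differently normalised assays, so that only its order among genes can be read.

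By role, the median ratio was 0.171 for membrane-bound semaphorins, 0.249 for plexins, 0.286 for secreted semaphorins and 0.493 for the 2 neuropilins. Among genes above 1 FPKM, *Sema3a* (0.736) and *Nrp1* (0.669) were highest. *Sema6b* (0.0640), *Sema5b* (0.0737) and *Plxnb1* (0.0742) were lowest. *Sema3d* had the highest ratio of all, 0.869, at an RNA level of 0.257 FPKM.

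**Figure D2:**
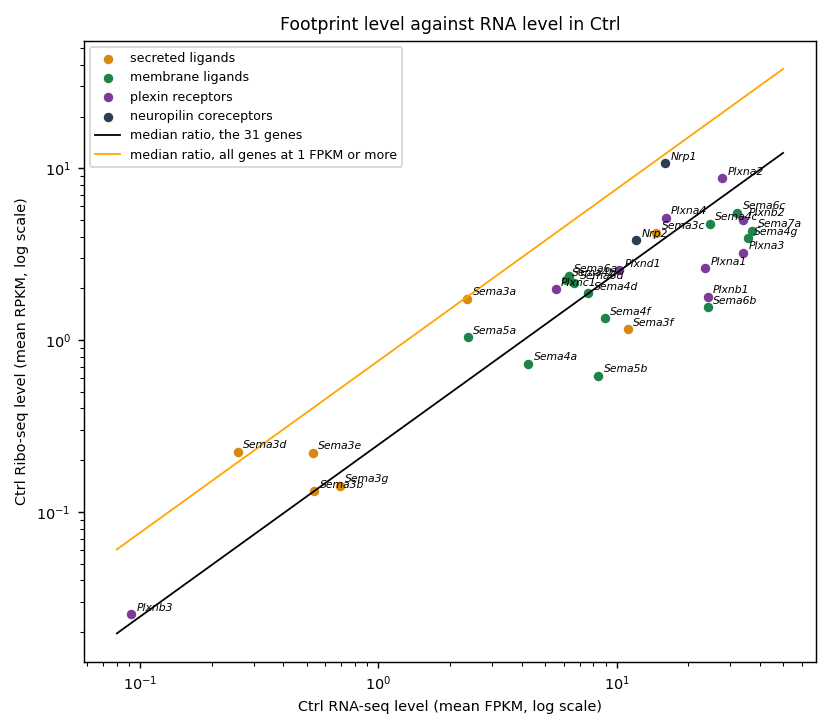
Mean Ctrl Ribo-seq level (RPKM, y axis, log scale) against mean Ctrl RNA-seq level (FPKM, x axis, log scale) of the 31 genes, coloured by role. The lines mark the median ratio of the 31 genes (0.246) and of all genes at 1 FPKM or more (0.757), and *Sema3d* lies above the upper line while *Sema6b* lies farthest below it.

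In *M*-cKO RNA, compared to Ctrl, 8 of the 30 tested genes rose and 7 fell (edgeR quasi-likelihood test, adjusted *P* below 0.05 over all genes). Over all 16968 genes tested, 15.5% rose and 14.1% fell. The median log2 fold change was -0.04 over the 30 genes and -0.01 over all genes. Of the secreted ligands 2 fell and 0 rose, of the membrane-bound ligands 5 rose and 2 fell, of the plexins 3 rose and 2 fell, and 1 neuropilin fell. In these whole cortices, fewer cells of a type cannot be told apart from less RNA per cell. The part of the marker shifts given above in these counts was not tested.

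*Sema3c*, a secreted ligand of *Nrp1* and *Nrp2* that attracts some cortical axons, fell furthest. Its level was 14.3, 12.3 and 17.5 FPKM in Ctrl and 6.42, 6.32 and 7.13 in *M*-cKO. Each *M*-cKO library was thus at about the same low level, and no library overlapped Ctrl. The fitted fold was 0.449 (log2 fold change -1.16 ± 0.11, SE, edgeR adjusted *P* = 5.73e-05). *Sema3f*, a repellent that acts through *Nrp2*, had 9.89, 11.3 and 12.3 FPKM in Ctrl and 8.10, 9.83 and 8.69 in *M*-cKO (log2 fold change -0.34 ± 0.10, edgeR adjusted *P* = 0.0224), and the groups overlapped once libraries were scaled by TMM. *Sema3a* did not pass the test (log2 fold change 0.02 ± 0.10), and the 4 secreted ligands below 1 FPKM ranged from -0.60 (*Sema3e*) to -0.02 (*Sema3b*).

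*Nrp1* fell with its ligand. It was at 16.3, 16.4 and 15.2 FPKM in Ctrl and 10.6, 10.2 and 11.9 in *M*-cKO, with no overlap. The fold was 0.678 (log2 fold change -0.56 ± 0.07, edgeR adjusted *P* = 0.000193), and it passed under each alternative. *Nrp2* had a log2 fold change of -0.03 ± 0.10 and did not pass the test.

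Among the plexins, *Plxnd1*, a receptor known for vessel patterning and for *Sema3e*, rose from 11.3, 10.6 and 8.85 FPKM to 13.8, 14.1 and 14.7 (log2 fold change 0.46 ± 0.08). *Plxnc1*, the receptor of *Sema7a*, rose from 6.17, 5.20 and 5.28 FPKM to 7.95, 7.95 and 6.26. *Plxnb2*, a class 4 receptor of neural progenitors, rose from 34.01, 37.07 and 30.99 FPKM to 41.2, 41.4 and 45.6. These 3 receptors were above every Ctrl library in each *M*-cKO library, although 1 *Plxnc1* library (6.26) lay close to the highest Ctrl library (6.17). Of the 4 A-type plexins, 2 fell. *Plxna3* fell from 31.1, 35.0 and 36.2 FPKM to 28.4, 27.0 and 26.9 (log2 fold change -0.32 ± 0.07), and *Plxna4*, which signals for *Sema3a* and *Sema6a*, from 16.2, 14.9 and 17.0 to 13.9, 14.3 and 12.6 (-0.25 ± 0.07). *Plxna1*, *Plxna2* and *Plxnb1* did not pass, with log2 fold changes of 0.19, -0.06 and -0.12, although the *Plxna1* libraries all lay above Ctrl and DESeq2 called it.

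Of the membrane-bound ligands, *Sema5b*, a repellent with thrombospondin repeats, rose most, from 8.55, 9.40 and 7.22 FPKM to 12.15, 11.84 and 11.98 (log2 fold change 0.51 ± 0.09, edgeR adjusted *P* = 0.00138). *Sema4b* had 6.64, 6.01 and 5.83 FPKM in Ctrl and 8.04, 8.25 and 8.37 in *M*-cKO. *Sema6a*, a ligand of *Plxna2* and *Plxna4*, had 6.22, 6.49 and 6.19 FPKM in Ctrl and 8.04, 8.44 and 8.46 in *M*-cKO (log2 fold change 0.39 ± 0.06). In both genes the 3 *M*-cKO libraries formed a narrow group above Ctrl. *Sema6d*, a ligand of *Plxna1*, rose from 7.586, 6.404 and 5.914 FPKM to 8.36, 8.54 and 8.02. *Sema4d*, the ligand of *Plxnb1*, rose from 7.82, 8.14 and 6.88 FPKM to 9.23, 8.69 and 9.78. *Sema4a* fell from 3.79, 4.23 and 4.77 FPKM to 3.08, 3.10 and 2.91 (log2 fold change -0.50 ± 0.10), and *Sema6c* from 29.2, 32.8 and 34.3 to 25.9, 26.5 and 28.1 (-0.27 ± 0.07). The remaining 6 membrane-bound ligands, among them *Sema7a* and *Sema4g*, ranged from -0.16 to 0.16 in log2 fold change and did not pass. Without Ctrl replicate 3, 10 of the 15 calls were left, with *Plxna4*, *Sema3f*, *Sema4d*, *Sema6c* and *Sema6d* lost, while those over all genes went from 2630 higher and 2394 lower to 2048 and 1498. *Plxnc1* lost its call without *M*-cKO replicate 2 (edgeR adjusted *P* = 0.0559). Of 12 alternatives, *Plxna4* and *Sema4d* lost theirs in 4 each, *Sema3f* and *Sema6c* in 3 each, *Sema6d* in 2 and *Plxnc1* in 1, and the other 9 genes kept it in all 12.

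In *F*-cKO RNA, compared to the same Ctrl libraries, 6 of the 30 genes rose and 6 fell (edgeR, adjusted *P* below 0.05), while 11.5% of all 16944 genes rose and 9.57% fell. Their median log2 fold change was 0.05, compared to -0.01 over all genes. Of the secreted ligands 2 fell and 0 rose, of the membrane-bound ligands 3 rose and 4 fell, 3 plexins rose and 0 fell, and neither neuropilin passed. The count was 6 without Ctrl replicate 3 (4 higher, 2 lower) and 7 without *F*-cKO replicate 2 (3 higher, 4 lower), the library that kept most *Fto* RNA. Over all genes the calls went from 1955 higher and 1621 lower to 984 and 559 without Ctrl replicate 3, and to 1148 and 812 without *F*-cKO replicate 2. Of 12 alternatives, *Plxna4* and *Sema5b* lost their call in 6 each, *Plxnb2* in 5, *Sema3c* and *Sema6b* in 4 each, *Sema3f* in 3 and *Sema4a* in 1, while *Plxna2*, *Sema4f*, *Sema5a*, *Sema6d* and *Sema7a* kept it in all 12. The part of the lower meningeal markers and of the higher intermediate progenitor, projection neuron and Cajal-Retzius markers was not tested.

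*Sema5a*, an integral membrane semaphorin that can attract or repel axons, had the largest change. Its level was 2.78, 2.49 and 1.86 FPKM in Ctrl, 4.35, 4.56 and 6.14 in *F*-cKO, and 2.11, 2.39 and 2.33 in *M*-cKO. Each *F*-cKO library was above every Ctrl and *M*-cKO library, with replicate 3 the highest, and the fold was 2.09 (log2 fold change 1.07 ± 0.16, edgeR adjusted *P* = 0.00405). *Sema6d* was at 9.28, 9.69 and 11.9 FPKM in *F*-cKO (fold 1.54, log2 fold change 0.62 ± 0.11). *Sema5b* was at 10.001, 10.83 and 10.31 FPKM in *F*-cKO, between Ctrl and *M*-cKO (0.30 ± 0.09, edgeR adjusted *P* = 0.0462).

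The plexins that rose were *Plxna2*, *Plxna4* and *Plxnb2*. *Plxna2*, a receptor of *Sema6a* and class 3 ligands, was at 29.6, 28.5 and 25.3 FPKM in Ctrl, 38.2, 36.8 and 42.9 in *F*-cKO and 26.5, 27.5 and 26.6 in *M*-cKO. Its *F*-cKO libraries thus stood alone above the other 6 (log2 fold change over Ctrl 0.49 ± 0.08). *Plxna4* was at 20.3, 18.1 and 18.9 FPKM in *F*-cKO (0.24 ± 0.07), above Ctrl, where *M*-cKO lay below. *Plxnb2* was at 42.0, 40.3 and 42.6 FPKM in *F*-cKO (0.28 ± 0.07), a level that overlapped *M*-cKO.

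*Sema3c* was at 11.0, 11.8 and 8.72 FPKM in *F*-cKO, below every Ctrl and above every *M*-cKO library (log2 fold change -0.49 ± 0.14, edgeR adjusted *P* = 0.0306). *Sema3f* was at 9.08, 8.76 and 9.01 FPKM (-0.33 ± 0.08) and *Sema4a* at 2.91, 3.45 and 2.54 (-0.53 ± 0.13). *Sema4f* had 8.61, 8.80 and 9.37 FPKM in Ctrl and 7.32, 6.90 and 6.31 in *F*-cKO (-0.39 ± 0.08). *Sema6b*, a class 6 ligand, fell from 22.5, 23.7 and 26.4 FPKM to 21.1, 18.8 and 14.9 (-0.42 ± 0.11), with its 3 *F*-cKO libraries spread widely. *Sema7a* fell from 36.6, 34.9 and 40.0 FPKM to 29.2, 31.7 and 29.3 (-0.32 ± 0.07). *Sema4g*, the second most abundant gene, was at 33.0, 31.7 and 28.8 FPKM and did not pass (-0.21 ± 0.07, edgeR adjusted *P* = 0.0607). *Sema6c*, called lower in *M*-cKO, did not pass in *F*-cKO either (-0.27 ± 0.09, edgeR adjusted *P* = 0.0619). DESeq2 called both genes. *Nrp1* was at 15.92, 16.22 and 14.96 FPKM, overlapping Ctrl (-0.04 ± 0.06). *Plxna3* was at 31.7, 34.2 and 29.0 FPKM and also overlapped it.

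Gene length moved with the *F*-cKO result. The length implied by counts and FPKM was 18888 bases for *Sema5a*, 17359 for *Plxna2* and 14255 for *Plxna4*, which rose, and 3334 for *Sema7a* and 4011 for *Sema6b*, which fell. Across genes, Spearman's rho of log2 fold change with length was 0.478 over these 30 genes and 0.235 over all genes in *F*-cKO, compared to -0.0340 and 0.0437 in *M*-cKO. These points share the same libraries. With each library's trend along length removed, an alternative added after seeing the data, *F*-cKO calls were 3 higher and 8 lower instead of 6 and 6, and those over all genes 1459 and 1409 instead of 1955 and 1621. *Sema5a* kept a log2 fold change of 0.89 (edgeR adjusted *P* = 0.00756), *Plxna2* 0.32 (0.0232) and *Sema6d* 0.51 (0.0146), while *Plxna4* (0.09, 0.369), *Plxnb2* (0.20, 0.0849) and *Sema5b* (0.23, 0.113) no longer passed. *Sema6c* (-0.32, 0.0421) and *Sema4g* (-0.23, 0.0478) passed in addition. In *M*-cKO the 15 calls were the same genes.

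**Figure D3:**
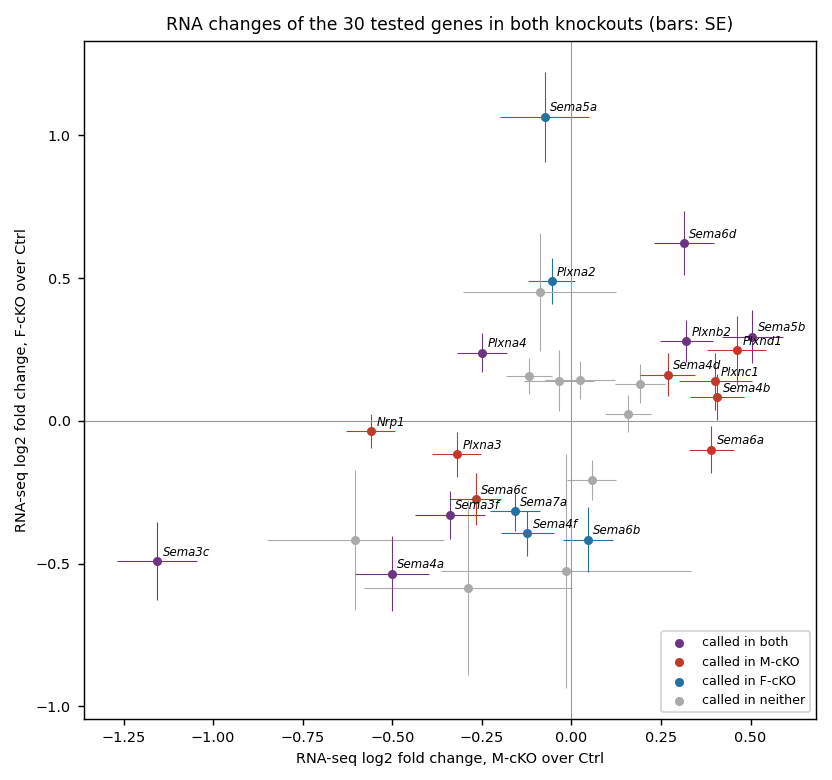
RNA-seq log2 fold change over Ctrl in *F*-cKO (y axis) against *M*-cKO (x axis) of the 30 tested genes, with bars of 1 SE and colours for the comparisons in which a gene was called. Both axes share the 3 Ctrl libraries, so that points are not independent in the 2 directions. *Sema5a* stands highest (1.07 in *F*-cKO, -0.07 in *M*-cKO) and *Sema3c* farthest left (-1.16 and -0.49).

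The 2 knockouts were then compared directly, without the Ctrl libraries. RNA of 6 genes was higher in *M*-cKO than in *F*-cKO and RNA of 8 was lower (edgeR), while 13.1% of all 16802 genes were higher and 14.3% lower. The 6 that were higher are all membrane-bound ligands (*Sema4b*, *Sema4f*, *Sema4g*, *Sema5b*, *Sema6a* and *Sema6b*). Those that were lower are 4 plexins (*Plxna2*, *Plxna3*, *Plxna4* and *Plxnb1*), *Nrp1*, *Sema3c*, *Sema5a* and *Sema6d*. The difference was largest for *Sema5a* (log2 difference -1.15 ± 0.12, edgeR adjusted *P* = 0.000229), followed by *Sema3c* (-0.68 ± 0.10), *Plxna2* (-0.56 ± 0.07) and *Nrp1* (-0.53 ± 0.07). In each of these 4 the *M*-cKO libraries lay below all *F*-cKO libraries. Without *F*-cKO replicate 2 the count was 8 and without *M*-cKO replicate 2 it was 9. Over all genes the calls went from 2196 higher and 2403 lower to 1442 and 1325, and to 1580 and 1500, in the same order.

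Footprints of 1 gene rose and of 2 fell in *M*-cKO compared to Ctrl, of 30 tested (edgeR, adjusted *P* below 0.05). Over all 14314 genes 7.13% rose and 7.5% fell. *Nrp1* had 10.3, 11.7 and 10.1 RPKM in Ctrl and 5.22, 4.66 and 8.61 in *M*-cKO, where replicate 3 lay nearest to Ctrl (log2 fold change -0.79 ± 0.21, edgeR adjusted *P* = 0.0444). *Plxna4* had 4.75, 5.23 and 5.45 RPKM in Ctrl and 3.78, 3.84 and 3.94 in *M*-cKO, with no overlap (-0.40 ± 0.10, edgeR adjusted *P* = 0.0333). *Sema5b* had 0.617, 0.510 and 0.727 RPKM in Ctrl, from 91 to 130 footprints a library, and 1.62, 1.58 and 0.808 in *M*-cKO. Replicate 3 of *M*-cKO was again nearest to Ctrl, and the log2 fold change was 1.12 ± 0.31 (edgeR adjusted *P* = 0.0492). Ganglionic eminence markers summed to 405, 437 and 247 CPM in the same *M*-cKO footprint libraries and to 148 to 222 in Ctrl, and radial glia markers to 1770 to 2398 and 2780 to 3171. Of the 6 radial glia markers 1 rose and 1 fell in footprints, with a median log2 fold change of -0.04. The part of either list in these values was not tested.

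These 3 calls lay close to the threshold. None of the 3 passed without any 1 of the 3 Ctrl libraries, or without *M*-cKO replicate 1 or 2, while 6 genes passed without *M*-cKO replicate 3 and 7 with DESeq2. Over all genes 1020 were higher and 1073 lower, compared to 1303 and 1244 without *M*-cKO replicate 3 and 1617 and 1512 with DESeq2. Without a Ctrl library or *M*-cKO replicate 1 or 2 they were 115 to 771 higher and 62 to 524 lower. None of the 3 passed with all genotypes in one fit, where 29 of all genes were higher and 6 lower. The same held with a replicate block, where 681 were higher and 638 lower. *Sema6a*, called in RNA, had 2.16, 2.28 and 2.68 RPKM in Ctrl and 3.08, 3.09 and 3.91 in *M*-cKO and fell just outside (log2 fold change 0.51 ± 0.14, edgeR adjusted *P* = 0.0502). *Sema3c* had 3.39, 3.95 and 5.28 RPKM in Ctrl and 2.47, 2.17 and 3.40 in *M*-cKO, which overlapped at 1 library (-0.64 ± 0.21, edgeR adjusted *P* = 0.0780). Over the 30 genes the median log2 fold change was 0.16, compared to -2.84e-04 over all genes.

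**Figure D4:**
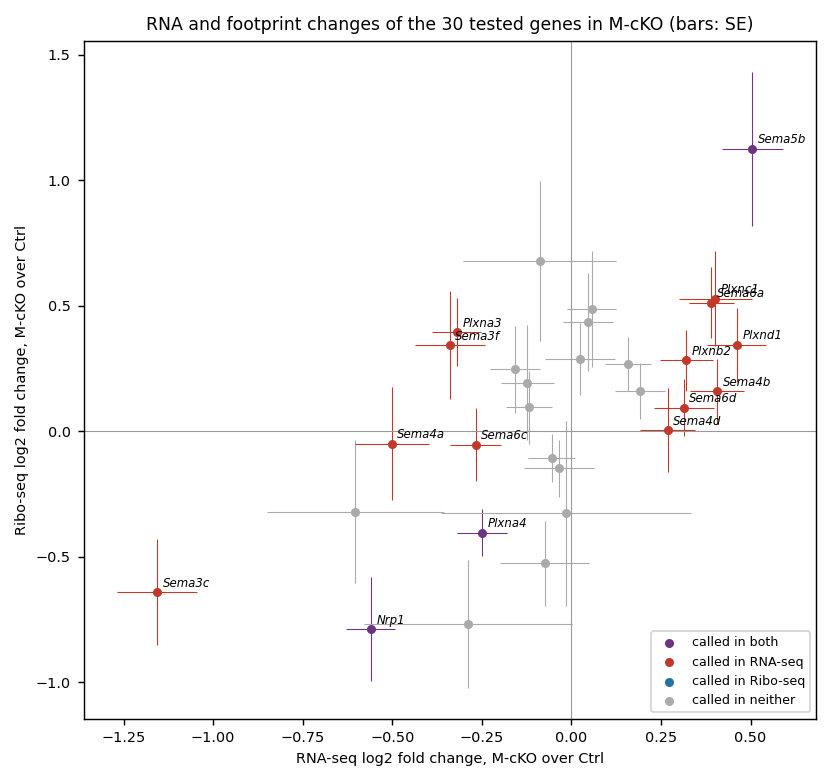
Ribo-seq log2 fold change (y axis) against RNA-seq log2 fold change (x axis) in *M*-cKO over Ctrl for the 30 tested genes, with bars of 1 SE and colours for the assay in which a gene was called. *Sema5b* lies at the top right (0.51 in RNA, 1.12 in footprints), *Nrp1* at the lower left (-0.56 and -0.79), and *Plxna3* has RNA below 0 and footprints above 0 (-0.32 and 0.40).

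TE, tested as the interaction of assay and genotype over 12 libraries, was higher in *M*-cKO than in Ctrl for *Plxna3* and for no other of the 30 genes, and lower for 0 (edgeR). Of all 13208 genes 1.89% were higher and 1.18% lower. *Plxna3* footprints were at 2.97, 3.20 and 3.47 RPKM in Ctrl and 4.90, 3.98 and 3.70 in *M*-cKO, while its RNA was lower (given above). The TE difference was 0.78 ± 0.14 on the log2 scale (edgeR adjusted *P* = 0.0162). It did not pass without RNA-seq Ctrl replicate 3 (edgeR adjusted *P* = 0.0512), nor with all genotypes in one fit (0.819). TE calls over all genes went from 249 higher and 156 lower to 54 and 22 without that library, and to 8 and 3 in that fit. At an unadjusted *P* below 0.05, 8 of the 30 genes had a higher and 0 a lower TE, compared to 12.3% and 9.21% of all genes, and the median log2 difference was 0.19, compared to 0.02 over all genes. *Sema3f* had RNA that fell and a TE difference of 0.74 ± 0.21 that did not pass (edgeR adjusted *P* = 0.0718). It passed with DESeq2, and without Ribo-seq *M*-cKO replicate 3, where *Nrp1* and *Sema5b* passed too (with *Plxna3*, 3 genes were higher and 1 lower). TE calls over all genes were 527 higher and 510 lower with DESeq2, and 573 and 481 without that library. *Nrp1* had a TE difference of -0.16 ± 0.22.

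In *F*-cKO Ribo-seq, replicate 2 set the values of these genes. In that library all 30 genes with footprint counts were above the Ctrl mean, and 29 by over 2-fold, compared to 21.0% of all 14326 genes. The median over the 30 genes was 4.67-fold the Ctrl mean, from 1.95-fold (*Sema6c*) to 11.9-fold (*Plxnb2*). *Plxnb2* was at 4.42, 52.3 and 3.99 RPKM in the 3 *F*-cKO libraries and at 4.29, 5.55 and 5.21 in Ctrl. *Nrp1* was at 7.07, 50.0 and 10.2 RPKM in *F*-cKO, and *Sema3c* at 2.64, 20.3 and 5.26. Replicates 1 and 3 lay near or below Ctrl, with medians of 0.743-fold and 0.969-fold over the 30 genes. In RNA-seq, *F*-cKO replicate 2 showed a median of 1.02-fold. In the same Ribo-seq library the 4 Cajal-Retzius markers summed to 859 CPM, compared to 65.3 and 82.2 in replicates 1 and 3, and the 6 endothelial markers to 301, compared to 14.0 and 20.6. The 4 microglial markers summed to 42.8 CPM there, compared to 8.20 and 11.0, and the 5 meningeal markers to 214, compared to 40.1 and 109. The 6 projection neuron markers were lower there, at 1765 CPM compared to 2562 and 2574. The median log2 fold change in *F*-cKO footprints was 0.19 over the 4 Cajal-Retzius markers and 2.27 over the 6 endothelial markers, so that the first sum did not rest on the whole list. The part of these markers in the result was not tested. The median ratio of RPKM to FPKM over the 31 genes was 0.174, 1.09 and 0.217 in *F*-cKO replicates 1, 2 and 3.

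**Figure D5:**
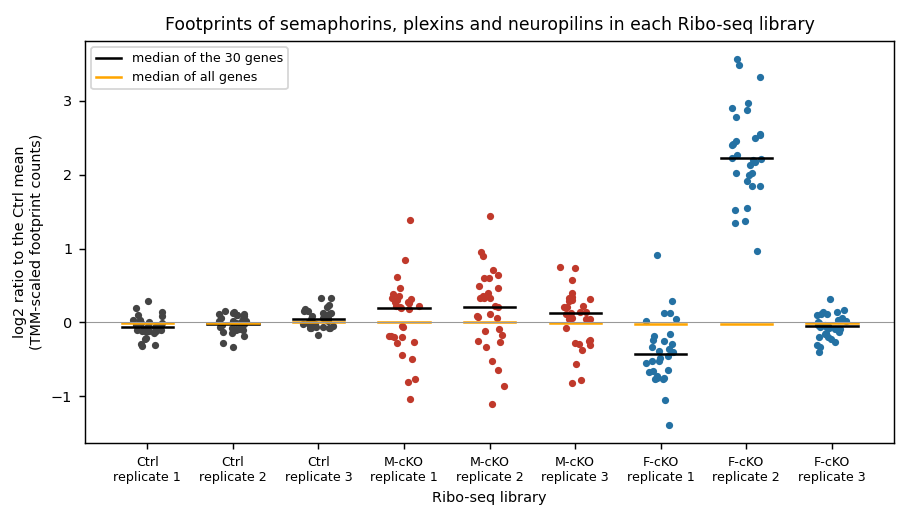
Log2 ratio of TMM-scaled footprint counts to the Ctrl mean (y axis) in each of the 9 Ribo-seq libraries (x axis), 1 point for each of 30 genes, with black lines for their median and orange lines for the median of all genes. *F*-cKO replicate 2 has all points above 0 and a median of 2.22, while the medians of the other 8 libraries lie between -0.43 and 0.21.

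With replicate 2, none of the 30 genes passed in *F*-cKO compared to Ctrl, and 0% of 14335 genes did (edgeR). Even *Fto*, the targeted gene, did not pass (log2 fold change -2.67 ± 0.25, edgeR adjusted *P* = 0.350). The 30 log2 fold changes were all above 0 (0.36 to 2.17), compared to 55.3% of all genes, yet 0 of the 30 had an unadjusted *P* below 0.05, while 1.58% of all genes were higher and 0.635% lower at that threshold. DESeq2 also called 0 of them, with 4 below 0.05 unadjusted, and called 5 of all genes higher and 1 lower. Without replicate 2, again 0 passed, 1 gene of 14336 did (0.00698%), and the median over the 30 genes turned to -0.21, compared to -0.0013 over all genes. Then 3 of the 30 were above 0, compared to 49.8% of all genes. *Plxna2* alone had an unadjusted *P* below 0.05 (log2 fold change -0.33, edgeR adjusted *P* = 0.875), where 2.36% of all genes were higher and 1.52% lower at that threshold, and the values ranged from -0.47 (*Sema4d*) to 0.52.

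TE in *F*-cKO compared to Ctrl was called for 0 of the 30 genes and for 0% of 13225 genes (edgeR). DESeq2 called 0 of the 30, and of all genes 5 higher and 39 lower. With all libraries all 30 TE differences were above 0 (0.27 to 1.87) and none had an unadjusted *P* below 0.05, compared to 3.11% (higher) and 6.18% (lower) of all genes. Without Ribo-seq *F*-cKO replicate 2 they ranged from -1.15 (*Sema5a*) to 0.40 (*Sema3c*). Again 0 were called, and 1 of all 13225 genes was. Then 6 had an unadjusted *P* below 0.05, all lower, while 7.62% of all genes were lower and 6.14% higher at that threshold. They were *Plxna2* (-0.82, edgeR adjusted *P* = 0.0879), *Sema5a* (-1.15), *Sema6d* (-0.83), *Plxna4* (-0.66), *Sema4d* (-0.62) and *Plxnb2* (-0.56). RNA of these genes other than *Sema4d* was called higher in *F*-cKO, and the same RNA-seq libraries are the denominator of TE, so that higher RNA and lower TE are not independent. *Sema5a* footprints were at 1.17 and 0.842 RPKM in *F*-cKO replicates 1 and 3, compared to 1.10, 1.01 and 1.01 in Ctrl.

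Between the knockouts, footprints were called for 0 of 29 genes and for 0% of 14262, and TE for 0 of 29 and 0% of 13162 (edgeR). DESeq2 called 0 of the 29 in each, and of all genes 178 higher and 28 lower in footprints and 16 and 2 in TE. Without Ribo-seq *F*-cKO replicate 2, edgeR also called 0 of the 29 in each, and 5 of all 14282 genes in footprints and 5 of 13166 in TE. With replicate 2, 3 footprint values had an unadjusted *P* below 0.05, all lower in *M*-cKO, and 0 TE values did. Of all genes 4.98% had higher and 3.11% lower footprints, and 2.44% higher and 1.67% lower TE, at that threshold. Without replicate 2, 7 footprint and 11 TE values were below it, all higher in *M*-cKO, compared to 7.3% and 7.82% of all genes higher and 6.07% and 3.36% lower. The median log2 difference of footprints over the 29 genes turned from -1.04 to 0.41, and that over all genes from -0.07 to 0.0092. *Plxnb2* had the smallest adjusted *P* of the footprint values without replicate 2 (log2 difference 0.59, edgeR adjusted *P* = 0.281).

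A list of 42 partners of these receptors and ligands, chosen for their known roles, was examined beside them. In *M*-cKO RNA 6 rose and 12 fell (edgeR), where 15.5% of all genes rose and 14.1% fell. In *F*-cKO RNA 7 rose and 6 fell (edgeR), where 11.5% of all genes rose and 9.57% fell. In *M*-cKO, *Rnd3* (log2 fold change 1.05) and *Rnd2* (0.65), small GTPases of the family that binds plexins, *Gipc1* (0.39), which binds the tail of *Nrp1*, and *Erbb2* (0.56), a coreceptor of B-type plexins, were among those that rose. *Mical2* (-1.57), an oxidase acting on actin downstream of plexins, *Met* (-1.71), another coreceptor of B-type plexins, *Vegfa* (-0.48), a further ligand of *Nrp1*, and *Dpysl2* (-0.39), a collapsin response mediator, fell. In *F*-cKO, *Rnd3* (0.63), *Gsk3b* (0.41), *Arhgef11* (0.32) and *Erbb2* (0.52) rose, and *Mical2* (-1.37), *Met* (-1.51), *Vegfb* (-0.45) and *Farp1* (-0.29) fell. *Arhgef11* is an exchange factor bound by B-type plexins and *Farp1* one bound by A-type plexins. In *M*-cKO footprints, where 7.13% of all genes rose and 7.5% fell, 1 of 41 partners rose (*Rnd3*, 1.19) and 4 fell, *Mical2* (-1.31), *Met* (-1.12), *Rac1* (-0.54) and *Dpysl2* (-0.40). TE of 1 of 41, *Vegfb*, was higher in *M*-cKO, compared to 1.89% of all genes (log2 difference 0.66, edgeR adjusted *P* = 0.0328).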

How the data were processed

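RNA-seq and Ribo-seq libraries of E15.5 cortex were grouped by the genotype in their labels, 3 libraries per genotype and assay. The authors deposited raw read counts per gene for both assays, with FPKM for RNA-seq and RPKM for Ribo-seq. RNA-seq reads were aligned with HISAT2 2.0.5 and Ribo-seq reads with TopHat2 and counted with HTSeq. The submitters' processing notes also name mm10 and DESeq2 1.14.1. The RNA-seq counter, the annotation and the use of strand are not given in the sources used here, so that reads of *Plxna4* and its antisense gene cannot be told apart. The same limit holds for other members that overlap another RefSeq gene model, among them *Nrp1*, *Plxna2*, *Plxna3*, *Plxnb2*, *Sema4a*, *Sema4d*, *Sema5b* and *Sema6d*, all called in RNA. Among the Ribo-seq counts 40490 genes were blank in 8 libraries and only the 14348 complete genes were used, which left out *Plxnb3*.

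Each comparison used its own 6 libraries (12 for TE) in edgeR 4.0.16 (R 4.3.3, limma 3.58.1) with TMM scaling, the filterByExpr minimum count of 10 and total of 15, and the quasi-likelihood test. Benjamini-Hochberg adjustment ran over all genes tested, and genes with an adjusted *P* below 0.05 were called. FPKM and RPKM served only for levels. CPM values are TMM-scaled. Scripts were tested on simulated data. Alternatives were DESeq2 1.42.0, RLE scaling, no filter, all genotypes in one fit, a replicate block and leaving out each library. The genes and lists were chosen with earlier results of these data known. Values in every library were given for genes called against Ctrl whose knockout libraries all lay beyond Ctrl, for the 3 genes of highest Ctrl FPKM and for *Nrp1*. Other genes with values by library (*Sema3f*, *Sema4g* in *F*-cKO, *Plxna3* and *Sema6a*, *Sema3c*, *Plxnb2* and *Sema5a* footprints) were chosen after their values were seen. From 42 pathway partners, those called were named, at most 4 per direction by smallest adjusted *P*.

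Library depth was 18504094 to 22592406 counts in RNA-seq, and in Ribo-seq 30081796 to 35853227 in Ctrl, 13764136 to 21725348 in *M*-cKO and 10973699 to 32954317 in *F*-cKO. Libraries of lower depth carry the larger counting error.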

Additional observations from a re-analysis of the deposited data

Results flagged for a closer look

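For 14 genes the RNA change differed between the 2 knockouts by a direct test of *M*-cKO against *F*-cKO (edgeR quasi-likelihood test, adjusted *P* below 0.05 over all genes). Of all genes 13.1% were called higher and 14.3% lower. In all 14 the 3 *M*-cKO libraries did not overlap the 3 *F*-cKO libraries. The 14 were picked by the test on these same libraries, so that this adds no support, and the share of all genes without overlap is not given. The log2 differences below 0, lower in *M*-cKO, were -1.15 for *Sema5a*, -0.68 for *Sema3c*, -0.56 for *Plxna2*, -0.53 for *Nrp1* and -0.50 for *Plxna4*. *Sema6d* followed with -0.32, *Plxnb1* with -0.29 and *Plxna3* with -0.21. The differences above 0 were 0.20 for *Sema5b*, 0.25 for *Sema4g*, 0.26 for *Sema4f*, 0.31 for *Sema4b*, 0.45 for *Sema6b* and 0.48 for *Sema6a*. Of 12 alternatives, the call was lost in 9 for *Plxna3*, 6 each for *Sema6d* and *Sema5b*, 5 for *Sema4f*, 3 for *Sema4g* and 1 each for *Plxnb1* and *Sema4b*, and in 0 for the remaining 7 genes. With the trend along gene length removed, an alternative added after seeing the data, *Plxna3*, *Plxnb1* and *Sema6d* were no longer called, *Plxnc1* was, and the calls were 7 higher and 5 lower.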

How the results depend on the processing

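No called gene changed direction under any alternative run. Values that were not called did turn when Ribo-seq *F*-cKO replicate 2 was left out. Over these genes the median log2 footprint change in *F*-cKO went from 1.06 to -0.21, and that of *M*-cKO against *F*-cKO from -1.04 to 0.41. For *M*-cKO footprints the count of 3 was 7 with DESeq2, 0 with all genotypes in one fit, and 1 (*Sema3c*, none of the 3) with a replicate block. It was 1 with all genotypes but without Ribo-seq *F*-cKO replicate 2 (added after seeing the data), and 0 to 6 when 1 library was left out. Calls over all genes, 1020 higher and 1073 lower, became 1617 and 1512, 29 and 6, 681 and 638, and 713 and 548 in the same order. They were 115 to 1303 higher and 62 to 1244 lower when 1 library was left out. For TE in *M*-cKO the count of 1 was 2 with DESeq2, 0 with all genotypes in one fit, 0 with a replicate block (*Plxna3* adjusted *P* = 0.0527, edgeR) and 0 to 4 when 1 library was left out. TE calls over all genes, 249 higher and 156 lower, became 527 and 510, 8 and 3, and 105 and 67 in the same order. They were 46 to 573 higher and 19 to 481 lower when 1 library was left out. In RNA-seq, leaving out 1 library gave 10 to 16 calls in *M*-cKO, 6 to 13 in *F*-cKO and 8 to 13 between the knockouts. Calls over all genes were then 2048 to 2584 higher and 1498 to 2146 lower in *M*-cKO, compared to 2630 and 2394. In *F*-cKO they were 984 to 1868 and 559 to 1606, compared to 1955 and 1621. Between the knockouts they were 1442 to 2342 and 1325 to 2224, compared to 2196 and 2403. The median log2 TE level of -2.03 in Ctrl became -1.78 with a pseudocount of 0.1 and -1.59 with 1, and lay between -2.07 and -1.94 when 1 replicate was left out. Correlations of deviations from the group mean were -0.311 to 0.189 for same-numbered libraries and -0.330 to 0.429 for the others. These ranges overlap, so that they cannot show whether replicate numbers pair the libraries. With the replicate block RNA-seq calls were 15 in *M*-cKO, 7 in *F*-cKO and 12 between the knockouts. Calls over all genes were then 2405 higher and 2046 lower, 1275 and 855, and 1827 and 1883 in the same order. The cause of these moves was not tested.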
